A study of Mus musculus with 12 samples.

Results

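The 8 genes described here encode surface proteins, or the enzyme that makes a surface glycolipid, against which drugs for small cell lung cancer have been developed. They were picked by symbol (Dll3, Sez6, Ncam1, Sstr2, Cd276, Cd24a, Cd47 and B4galnt1), with earlier results of these data known, from a table of raw read counts with 22738 gene rows. All 8 had a row, and all 8 were among the 17426 genes that passed the filter on low counts. Dll3 is an unusual Notch ligand that sits largely inside the cell and dampens Notch signalling. Sez6 is a neuronal membrane protein, Ncam1 is the adhesion molecule CD56 used to diagnose neuroendocrine tumours, and Sstr2 is the somatostatin receptor to which radioligands bind. Cd276 encodes B7-H3, a relative of the T cell checkpoint ligands. Cd24a and Cd47 encode the "do not eat me" signals that engage Siglec-10 (Siglec-G in mice) and SIRPα on macrophages, and B4galnt1 adds the sugar that turns simple gangliosides into GM2 and GD2.

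The tumours came from lungs of mice of the genotype Rb1/Trp53/MycT58A, in which floxed Rb1 and Trp53 and a silenced Myc allele carrying the T58A change are recombined by Cre. All 4 groups share this model: the adenovirus Ad5CGRP-Cre, whose CGRP promoter directs Cre to neuroendocrine cells, was instilled into the airway at 8 weeks of age. The combination group received entinostat and anti-PD-1, the entinostat group received this inhibitor of class I histone deacetylases by mouth at 15 mg/kg daily for 28 days, the anti-PD-1 group received antibody to the T cell checkpoint receptor at 10 mg/kg for 4 weeks, and the control group received neither agent. The labels name methylcellulose and an isotype antibody as controls but do not say which the control libraries had, and the treatment label of the combination libraries names only the antibody, so the titles were followed. Each group had 3 libraries from poly(A) RNA of dissected frozen tumour. Nothing in the labels says that the libraries came from separate mice, so a p-value here reflects how far the sampled libraries scatter, which may in part be technical.

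Total counts per library lay between 31295987 and 54001886, and the lowest count of any of the 8 genes in any library was 111 (Dll3, control library 1). The 10 neuroendocrine markers were detected in every library, with a summed level of 336 to 574 CPM (counts relative to the library's total) in the combination group, 406 to 828 CPM with entinostat, 606 to 1085 CPM with anti-PD-1 and 945 to 1788 CPM in controls. Of the 1788 CPM in control library 1, Uchl1 gave 755 and Neurod1 490. The mean log2 CPM of the 10 markers was 4.14 to 4.89 in the combination group and 4.38 to 5.86 with entinostat. It was 5.25 to 6.28 with anti-PD-1 and 5.76 to 5.84 in controls, so only the combination group lay wholly below the controls. Markers of alveolar epithelium varied more within groups, between 43.9 CPM (control library 1, where 3 of 11 were at 0) and 655 CPM (entinostat library 1). Abca3 gave 41.8 of the 43.9 CPM, and it varied little, between 37.9 and 60.6 CPM over the 12 libraries. Sftpc, another of these markers, ran between 0.0979 CPM (control library 1) and 237 CPM (entinostat library 1). Control library 1 also lay farthest from the rest on the first principal component. Rb1 lay between 26.6 and 81.7 CPM and Trp53 between 8.40 and 20.0 CPM over the 12 libraries, and counts per gene do not separate deleted from retained exons, so they do not check recombination. In bulk tissue, fewer tumour cells and less RNA per tumour cell cannot be told apart.

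All 8 antigens were expressed in all 12 tumours, over a wide range of levels. On a scale of CPM per kilobase of exon, Cd24a was highest with a mean of 76.1, and Ncam1 followed at 23.9. Cd276 (8.65), B4galnt1 (7.00), Cd47 (6.66), Sstr2 (5.29) and Sez6 (4.73) formed a middle range, and Dll3 was lowest at 3.67 (means of all 12 libraries). The spread of the middle genes overlapped: over the 12 libraries Cd276 ran between 6.00 and 11.2, Cd47 between 2.99 and 13.9 and Sstr2 between 2.06 and 10.4 CPM per kilobase, and Dll3 ran between 0.76 and 11.1. Lengths were taken from GENCODE M21, an annotation of a later build than the authors used. Every other level below is in CPM without a length correction.

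**Figure D1:**
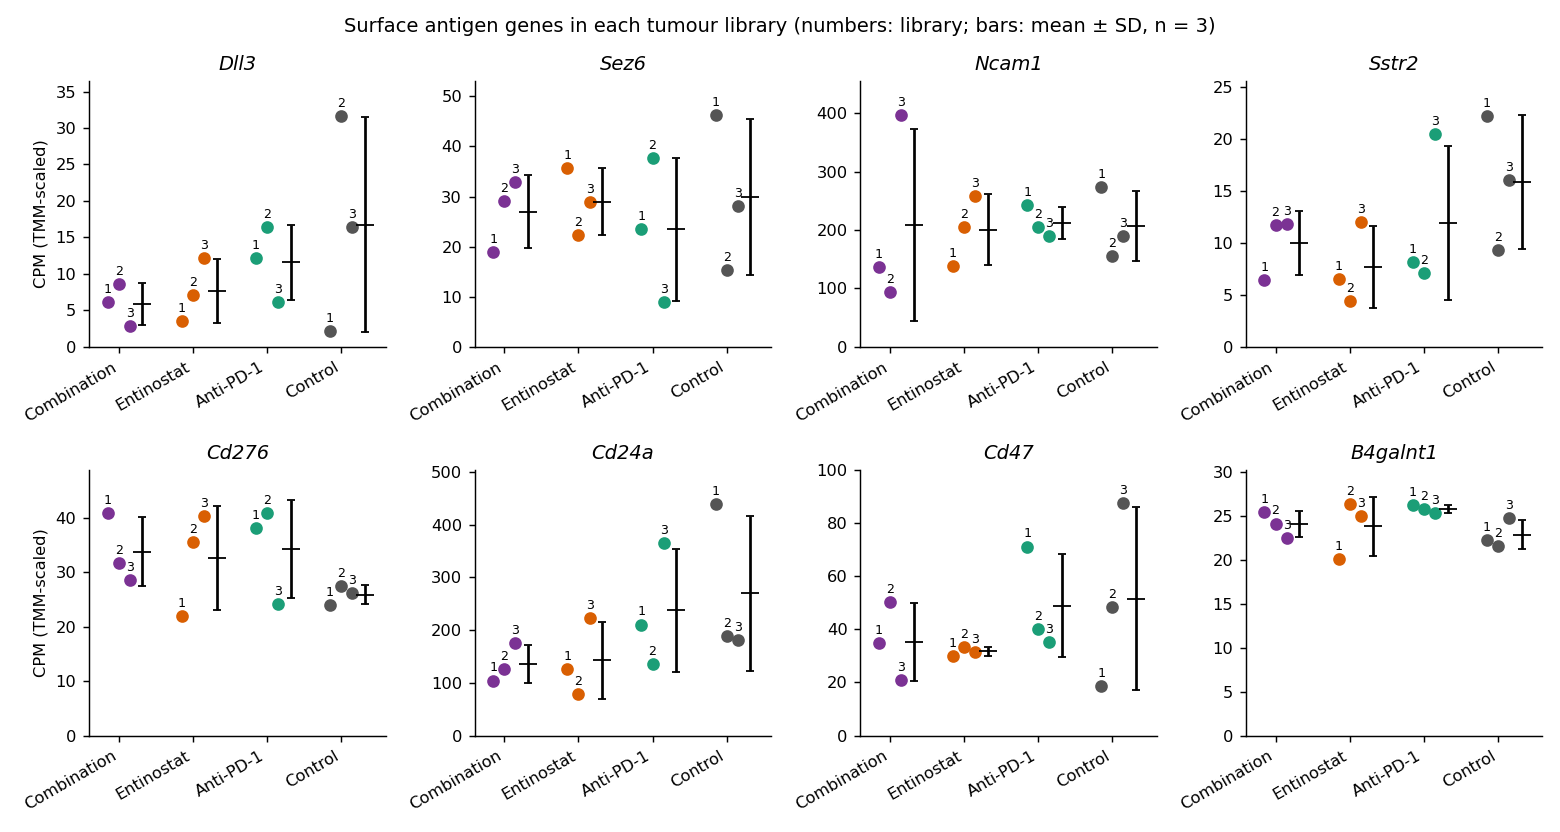
CPM of each of the 8 genes (vertical axes, linear and starting at 0) in the 3 libraries of each group (horizontal axis). Points are libraries with their replicate number, and bars show mean ± SD, n = 3. Dll3 ran between 2.17 and 31.6 CPM within the control group alone, whereas B4galnt1 lay between 20.1 and 26.4 CPM in all 12 libraries.

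None of the 8 genes passed the test in any treatment comparison. By the quasi-likelihood test of edgeR, with p adjusted (Benjamini-Hochberg) over all 17426 genes tested, 0 of 8 were called in the combination against control, where 11.7% of all genes were called. The count was likewise 0 of 8 for entinostat against control (5.27% of all genes), for anti-PD-1 against control (0.00574%), and for libraries with against without entinostat (10.6%), 6 against 6. No gene of the whole table was called in the combination against either single agent, in the anti-PD-1 main effect or in the interaction (0% each by edgeR). In these, 2168 genes (combination against anti-PD-1), 270 (combination against entinostat), 1886 (anti-PD-1 main effect) and 1052 (interaction) had an unadjusted p under 0.05, and DESeq2 called 429, 1, 103 and 57 in the same order. At an unadjusted p under 0.05 the only call among the 8 genes in all 8 comparisons was Cd24a with against without entinostat, a comparison in which 29.1% of all genes had such a p. The smallest adjusted p of the 8 genes was 0.112 in that comparison, 0.181 for the combination, 0.233 for entinostat and 0.5 for anti-PD-1, each against control. DESeq2 called 0 of 8 in every comparison too. Of all 17426 genes, DESeq2 called 3594 for the combination, 2389 for entinostat and 648 for anti-PD-1, each against control. With against without entinostat it called 3399.

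With against without entinostat the point estimate was negative for 6 of the 8 genes and positive for 2, none of them past the threshold. Of the 6, Ncam1 (-0.03) and B4galnt1 (-0.02) lay close to 0, and with upper quartile scaling both turned positive (0.11 each), so that 4 were negative and 4 positive. The same scaling gave 4 and 4 for entinostat and for the combination against control, beside 6 negative and 2 positive for entinostat and 5 and 3 for the combination with TMM scaling. By TMM, the median log2 fold change of the 8 genes was -0.31 with against without entinostat, beside 0.02 over all genes tested, -0.35 for the combination against control (0.05 over all genes) and -0.37 for entinostat against control (6e-04 over all genes). For anti-PD-1 against control the median was -0.13, beside -0.0013 over all genes. All 3 comparisons against control share the same control libraries. Between the combination and entinostat alone the median was 0.03, with 5 genes positive and 3 negative. In the interaction of both agents, 6 values were positive and 2 negative (4 and 4 with upper quartile scaling), with adjusted p of 0.918 or more.

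**Figure D2:**
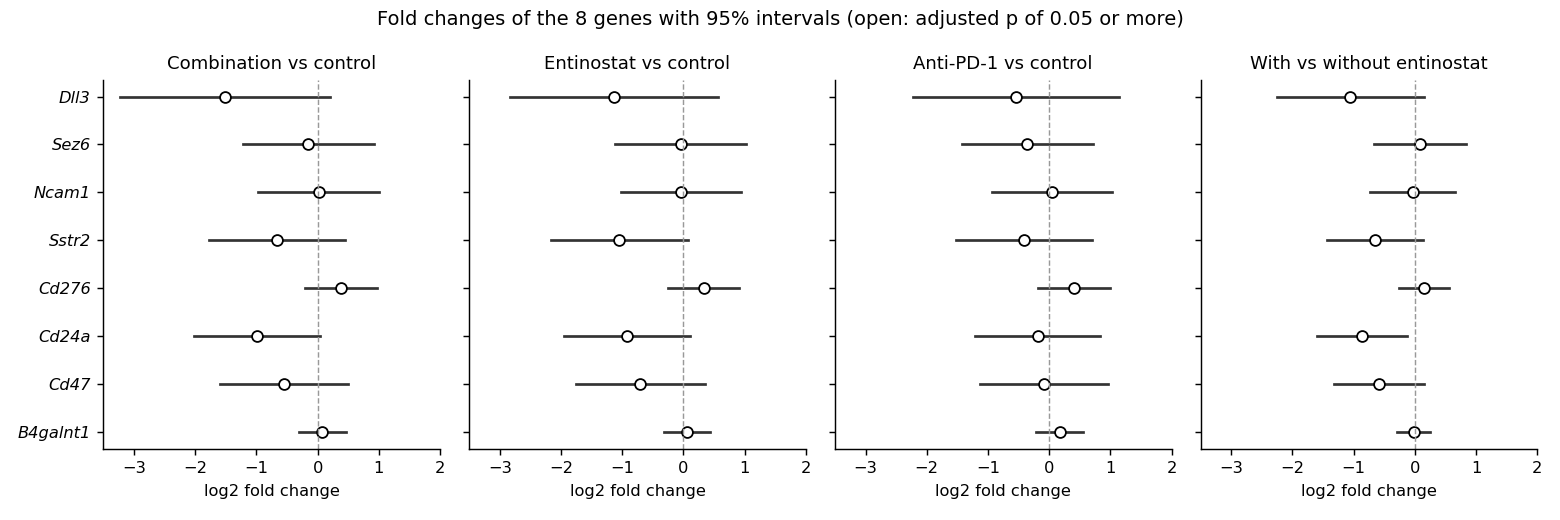
log2 fold change (horizontal axes) with 95% intervals from edgeR for the 8 genes in 4 comparisons, each open circle a gene with an adjusted p of 0.05 or more. Dll3 has the widest intervals and B4galnt1 the narrowest, and no circle is filled.

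Dll3 was the most variable of the 8 antigens. Its level was 6.17, 8.60 and 2.87 CPM in combination libraries 1, 2 and 3, 3.61, 7.14 and 12.2 CPM with entinostat, 12.2, 16.4 and 6.10 CPM with anti-PD-1, and 2.17, 31.6 and 16.5 CPM in controls. The control group held both the lowest and the highest library of all 12, and it overlapped with every treated group. The fold between these extremes was 14.6, and 84.0% of all genes tested had a smaller SD of log2 CPM over the libraries than the 1.13 of Dll3. Its log2 fold change was -1.51 (SE 0.79, adjusted p = 0.217) for the combination against control and -1.05 (95% interval -2.26 to 0.15, adjusted p = 0.227) with against without entinostat, both by edgeR. Single control libraries moved the estimate for the combination: it was -2.04 (edgeR adjusted p = 0.0714) without control library 1 and -0.66 without control library 2. The stretch of 250 bases before the start of 3 of the genes is shown, because Dll3 and Cd47 varied together over these tumours and Sstr2 did not follow them, as described further on. The strands are those of the genes, and the sequences are RefSeq's for GRCm38.p6.
Dll3, chr7:28301786-28302035, minus strand: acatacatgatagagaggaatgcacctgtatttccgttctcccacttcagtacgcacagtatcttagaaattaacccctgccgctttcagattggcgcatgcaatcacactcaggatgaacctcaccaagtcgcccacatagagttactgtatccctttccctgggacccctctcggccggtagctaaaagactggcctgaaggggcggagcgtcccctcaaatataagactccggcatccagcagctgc
Cd47, chr16:49855404-49855653, plus strand: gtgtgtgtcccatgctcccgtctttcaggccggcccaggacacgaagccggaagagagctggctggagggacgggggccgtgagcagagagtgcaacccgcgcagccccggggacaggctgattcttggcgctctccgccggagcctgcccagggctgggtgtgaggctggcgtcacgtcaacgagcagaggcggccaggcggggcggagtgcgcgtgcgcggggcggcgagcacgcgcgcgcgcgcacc
Sstr2, chr11:113619077-113619326, plus strand: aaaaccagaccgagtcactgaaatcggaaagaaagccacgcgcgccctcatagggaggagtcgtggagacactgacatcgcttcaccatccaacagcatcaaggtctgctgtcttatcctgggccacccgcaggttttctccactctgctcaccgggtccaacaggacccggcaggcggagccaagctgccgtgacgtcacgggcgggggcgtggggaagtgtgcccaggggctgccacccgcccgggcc
Neither CACGTG, the E-box bound by MYC with MAX (in 6.02% of 32851 RefSeq promoter stretches of this length), nor CAGATG, the E-box preferred by NEUROD1 (14.4%), was found in the 3 stretches on either strand, so no letters are in capitals. The stretch of Cd276 held neither motif. This says only that these letters are not in the window. The Dll3 stretch had 52.0% G and C, close to the median of 52.4% over all stretches, beside 73.2% for Cd47 and 63.6% for Sstr2. RefSeq stretches were at hand for 4 of the 8 genes, at 5 start sites. Cd47 had a second stretch, chr16:49855411-49855660, which is not shown. It had 74.4% G and C and held neither motif.

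Dll3 was low in the tumours in which Neurod1 was high, whatever the treatment. Neurod1, a transcription factor that drives a neuroendocrine subtype of small cell lung cancer, stood at 9.92, 27.8 and 126 CPM in combination libraries 1, 2 and 3, 62.5, 11.4 and 42.5 CPM with entinostat, 16.1, 20.1 and 149 CPM with anti-PD-1, and 490.2, 5.65 and 10.8 CPM in controls. The 4 highest libraries were combination 3, entinostat 1, anti-PD-1 3 and control 1, a library from each of the 4 groups. These 4 were the 4 lowest of the 12 in Dll3, at 2.87, 3.61, 6.10 and 2.17 CPM. Of the 4, 3 were among the 4 lowest in Cd47, and 2 were among the 4 highest in Cd24a and in Sstr2. These ranks describe 12 tumours, and no test was made of groups formed from them. The share of all genes tested that match the Neurod1 ranks as closely was not counted, so how unusual these matches are is not known.

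**Figure D3:**
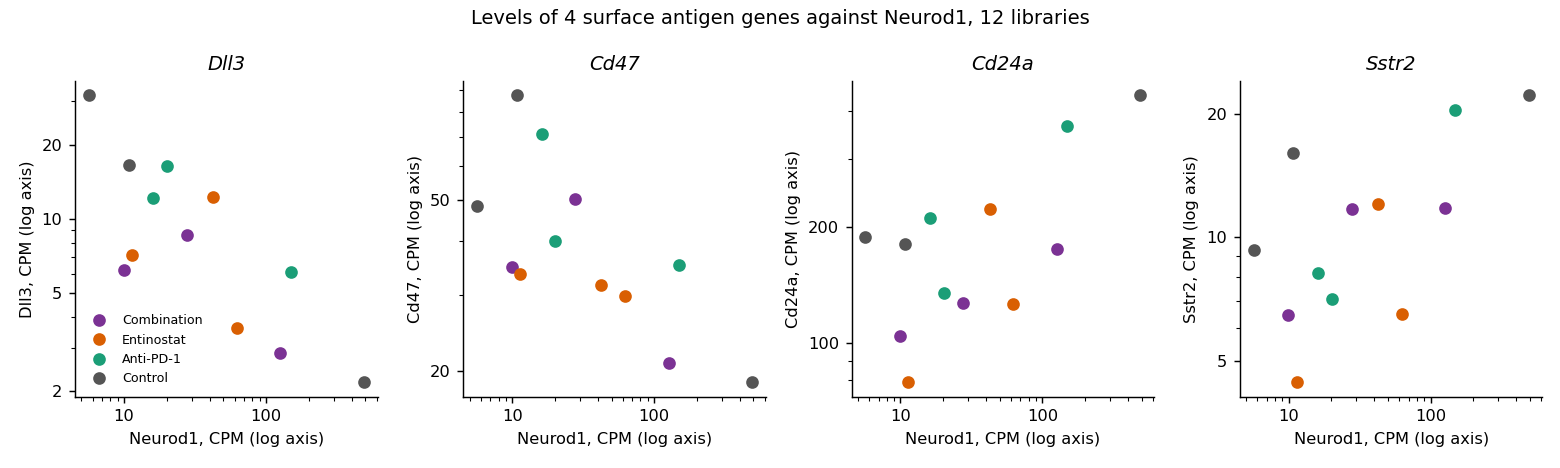
CPM of Dll3, Cd47, Cd24a and Sstr2 (vertical log axes) against CPM of Neurod1 (horizontal log axes), each point a library coloured by treatment group. The 4 libraries highest in Neurod1, at 62.5 to 490.2 CPM, come from 4 different groups and are lowest in Dll3.

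No treatment difference was detected for Sez6 and Ncam1. Sez6 stood at 18.8, 29.0 and 33.0 CPM in the combination group, 35.7, 22.3 and 28.9 CPM with entinostat, 23.6, 37.7 and 9.00 CPM with anti-PD-1, and 46.4, 15.3 and 28.1 CPM in controls. All 4 groups overlapped, with the lowest library in the anti-PD-1 group and the highest among controls. Its log2 fold change with against without entinostat was 0.08 (SE 0.34, 95% interval -0.68 to 0.83, edgeR adjusted p = 0.901), an interval that spans folds of 0.626 to 1.78. Ncam1 stood at 136, 93.9 and 396 CPM in the combination group, 138, 206 and 259 CPM with entinostat, 243, 205 and 191 CPM with anti-PD-1, and 273, 156 and 191 CPM in controls. The combination group held both the lowest and the highest of the 12 libraries, yet the group means were close: 209 ± 164, 201 ± 60.4, 213 ± 27.3 and 207 ± 60.2 CPM in the same order (SD, n = 3 each). For the combination against control the log2 fold change was 0.02, and without combination library 3 it was -0.85 (edgeR adjusted p = 0.142). Ncam1 overlaps the antisense gene Gm11149 on the opposite strand, at 8.20 to 36.9 CPM.

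Sstr2 had its highest levels in tumours that had not received entinostat, but its groups overlapped. It stood at 6.46, 11.7 and 11.8 CPM in the combination group, 6.49, 4.42 and 12.0 CPM with entinostat, 8.19, 7.06 and 20.4 CPM with anti-PD-1, and 22.2, 9.29 and 16.0 CPM in controls. The 3 highest libraries were anti-PD-1 library 3 and control libraries 1 and 3. The log2 fold change was -1.05 (SE 0.51, 95% interval -2.17 to 0.07, edgeR adjusted p = 0.233) for entinostat against control and -0.65 (SE 0.36, edgeR adjusted p = 0.253) with against without entinostat. On the opposite strand Sstr2 overlaps Slc39a11, at 19.7 to 51.3 CPM, and the labels do not state whether the authors' counting used strand.

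Cd276 was above every control in all 3 combination libraries. It stood at 40.8, 31.8 and 28.6 CPM in the combination group, 22.0, 35.5 and 40.3 CPM with entinostat, 38.1, 40.9 and 24.1 CPM with anti-PD-1, and 24.0, 27.5 and 26.2 CPM in controls. Groups without overlap were common in this comparison: 31.9% of all genes tested had all 3 combination libraries above or all 3 below the controls, 15.2% above. The log2 fold change was 0.38 (SE 0.27, edgeR adjusted p = 0.357) for the combination against control and 0.41 (edgeR adjusted p = 0.5) for anti-PD-1 against control, neither past the threshold. Controls were the least scattered group for this gene, with an SD of 1.75 CPM, beside 6.35 CPM in the combination group, 9.51 CPM with entinostat and 8.99 CPM with anti-PD-1. On the opposite strand Cd276 overlaps a predicted gene that has no row here.

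Of the 8 antigens, Cd24a had the smallest p with against without entinostat, but it did not pass the adjustment. It stood at 104, 127 and 175 CPM in the combination group, 126, 79.0 and 223 CPM with entinostat, 211, 135 and 366 CPM with anti-PD-1, and 439.9, 188 and 181 CPM in controls. All 3 combination libraries lay below every control, as did 16.7% of all genes tested. The libraries with entinostat had a low of 79.0, a median of 126 and a high of 223 CPM, against a low of 135, a median of 199.5 and a high of 439.9 CPM without it, so the 6 and 6 overlapped. The log2 fold change with against without entinostat was -0.86 (SE 0.33, 95% interval -1.59 to -0.13, unadjusted p = 0.0243 and adjusted p = 0.112 by edgeR), and DESeq2 gave -0.87 with an adjusted p of 0.0509. Without control library 1, the highest of the 12, edgeR gave -0.59 with an adjusted p of 0.234. With a score of alveolar markers as a covariate it gave -0.51 with an adjusted p of 0.384. Neutrophils, B cells and erythroid cells also express Cd24a; summed neutrophil markers stood at 3.54 to 65.1 CPM in the combination group, 11.3 to 40.6 CPM with entinostat, 7.39 to 40.8 CPM with anti-PD-1 and 0.665 to 16.1 CPM in controls, and B cell markers did not exceed 25.1 CPM. Erythroid markers stood at 137 to 366, 175 to 578, 156 to 1033 and 48.1 to 236 CPM in the same order, and their part in the level of Cd24a was not tested. Cd24a has intronless copies in the mouse genome, and how reads matching several places were counted is not given, so its level is uncertain.

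Cd47 varied least among the libraries with entinostat alone and most among controls. It stood at 34.8, 50.1 and 20.8 CPM in the combination group, 29.9, 33.5 and 31.6 CPM with entinostat, 71.1, 40.1 and 35.3 CPM with anti-PD-1, and 18.8, 48.4 and 87.4 CPM in controls. Every treated group lay inside the control range, whose low end was control library 1. The log2 fold change with against without entinostat was -0.59 (SE 0.34, 95% interval -1.33 to 0.15, edgeR adjusted p = 0.273). In the combination against control it was -0.55, and 0.07 without control library 3, so that its direction rested on that library.

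B4galnt1 was nearly constant across the 12 tumours. It stood at 25.5, 24.2 and 22.6 CPM in the combination group, 20.1, 26.4 and 25.0 CPM with entinostat, 26.3, 25.8 and 25.4 CPM with anti-PD-1, and 22.3, 21.6 and 24.8 CPM in controls. All 3 anti-PD-1 libraries were above every control, as was the case for 6.79% of all genes tested, and the gap between the lowest of the 3 (25.4 CPM) and the highest control (24.8 CPM) was small. The SD of its log2 CPM over the 12 libraries was 0.13, and only 12 of 17426 genes tested had a smaller one (0.0689%), beside a median of 0.54 over all genes. The log2 fold change was 0.18 (95% interval -0.21 to 0.56) for anti-PD-1 against control, 0.07 (-0.31 to 0.46) for the combination against control and -0.02 (-0.29 to 0.25) with against without entinostat, with edgeR adjusted p of 0.672, 0.805 and 0.927. On the opposite strand the gene overlaps Slc26a10, at 0.969 to 8.52 CPM. The next steadiest of the 8 genes was Cd276, with an SD of 0.33 on the log2 scale, and the remaining genes between B4galnt1 and Dll3 lay between 0.55 and 0.71.

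The antigens did not vary together as a set. Over the 12 libraries, which share the treatment groups and differ in content of normal lung, the 28 pairs of the 8 genes had correlations of log2 CPM between -0.51 (Cd276 with Sstr2, Spearman's rho -0.47) and 0.88 (Sstr2 with Cd24a, rho 0.85). Sstr2 and Cd24a kept a correlation of 0.89 after group means were removed and 0.75 without the 2 libraries farthest from the median. Dll3 and Cd47 had a correlation of 0.76 (rho 0.76), which was 0.74 after group means were removed. Cd276 and B4galnt1 had 0.72 (rho 0.71). No p is given for these, since they describe 12 libraries.

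Predicted genes, small RNAs and immunoglobulin or T cell receptor segments were skipped in a search for genes that vary like the antigens. Among the other genes tested, those most like each antigen over the 12 libraries were taken by Pearson's correlation of log2 CPM. For Dll3 they were Pkib (0.955, rho 0.923), an inhibitor of protein kinase A, Mnat1 (0.936) and Nr1d2 (0.93), a clock gene. For Cd47 they were Fhit (0.91), Syt1 (0.887), a synaptic vesicle protein, and Cxcl13 (0.885), a B cell chemokine. For Ncam1 they were Cacna1b (0.898), a neuronal calcium channel, Tmem151a (0.869) and Slc29a4 (0.868), and for Sez6 they were Bmp2k (0.895), Eif4g1 (0.861) and Zfp790 (0.855). Bmp2k and Sez6 had 0.64 without the 2 farthest libraries. For Sstr2 they were Vps16 (0.902), Kcnu1 (0.891) and Smyd4 (0.891), and Kcnu1 (0.901) was also among those for Cd24a, with Dynlt1a (0.928) and Tecr (0.92). For Cd276 they were Ppp1r9a (0.92), Bace1 (0.885), the protease that cleaves SEZ6, and Obsl1 (0.88). For B4galnt1 they were Pdcd6ip (0.865), Senp6 (0.861) and Fam71d (0.859), the last at under 0.459 CPM in every library.

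Of 6 tested genes that work beside Cd24a and Cd47 in phagocytosis, 1 rose and 1 fell with against without entinostat, where 3.87% of all genes rose and 6.74% fell. Lrp1, the receptor through which phagocytes recognise calreticulin on target cells, stood at 171, 159 and 185 CPM in the combination group, 128, 108 and 105 CPM with entinostat, 92.6, 126 and 81.6 CPM with anti-PD-1, and 42.0, 35.9 and 42.6 CPM in controls. Every treated library was above every control, as for 2.71% of all genes tested, and every combination library was above all others, as for 0.993%. Its log2 fold change was 2.09 (SE 0.19, edgeR adjusted p = 0.00361) for the combination against control, 1.50 (adjusted p = 0.0104) for entinostat against control and 1.14 (SE 0.13, adjusted p = 0.00477) with against without entinostat. For anti-PD-1 against control it was 1.32 (SE 0.19) with an adjusted p of 0.0641, which did not pass, and the call for entinostat against control ended with the alveolar score as a covariate (1.50, adjusted p = 0.0562). Calr, calreticulin itself, stood at 219, 209.8 and 198 CPM in the combination group, 238, 223 and 209 CPM with entinostat, 261, 227 and 259 CPM with anti-PD-1, and 531, 419.9 and 348 CPM in controls. Every control was above all treated libraries, as for 6.55% of all genes tested. Calr fell by 1.05 on the log2 scale (edgeR adjusted p = 0.00901) in the combination against control and by 0.61 (adjusted p = 0.0158) with against without entinostat, where the call ended with the alveolar score as a covariate (-0.56, adjusted p = 0.0736). The structural RNAs Rn45s, Rpph1 and Rmrp split the libraries in the same way, with 17.7% to 18.0% of counts in the combination group, 15.2% to 19.3% with entinostat, 20.5% to 36.4% with anti-PD-1 and 7.84% to 13.2% in controls. Without these 3 genes in the table, the log2 fold change for the combination against control was 2.09 for Lrp1 (edgeR adjusted p = 0.0036) and -1.05 for Calr (adjusted p = 0.00911). Sirpa, the receptor of CD47, stood at 42.6 ± 4.88 CPM in the combination group, 37.4 ± 7.69 CPM with entinostat, 29.4 ± 8.50 CPM with anti-PD-1 and 32.2 ± 2.57 CPM in controls (SD, n = 3 each), and did not pass. Fibroblasts and macrophages also express Lrp1. The 6 fibroblast markers summed to 527 to 1430 CPM in the combination group, 615 to 775 CPM with entinostat, 153 to 809 CPM with anti-PD-1 and 280 to 362 CPM in controls, the 10 macrophage and monocyte markers to 249 to 1239, 283 to 926, 376 to 588 and 308 to 659 CPM in the same order, and their part in the change was not tested.

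Of 12 tested genes of the Notch pathway around Dll3, 3 rose with against without entinostat and none fell, where 3.87% of all genes rose and 6.74% fell. The ligand Jag2 stood at 84.6, 86.0 and 111 CPM in the combination group, 70.7, 78.2 and 79.9 CPM with entinostat, 55.8, 49.4 and 60.6 CPM with anti-PD-1, and 34.8, 39.4 and 52.1 CPM in controls. All 6 libraries with entinostat were above all 6 without it, as were 2.01% of all genes tested, and the log2 fold change was 0.81 (SE 0.14, edgeR adjusted p = 0.00905). The receptor Notch2 stood at 109, 61.8 and 70.1 CPM in the combination group, 111, 71.2 and 50.6 CPM with entinostat, 25.9, 61.0 and 17.4 CPM with anti-PD-1, and 21.7, 19.9 and 29.9 CPM in controls. Its log2 fold change with against without entinostat was 1.46 (SE 0.31, edgeR adjusted p = 0.0187), with anti-PD-1 library 2 the only library without the drug inside the range of those with it. The call ended without combination library 1 or anti-PD-1 library 1 (1.31 and 1.36) and with the alveolar score as a covariate (adjusted p = 0.0962). The receptor Notch3 passed narrowly in this comparison (1.00, SE 0.29, edgeR adjusted p = 0.0488) and rose in the combination against control (1.74, adjusted p = 0.0264), where Jag2 (1.16, adjusted p = 0.00878) and Notch2 (1.75, adjusted p = 0.0308) rose as well, among 3.88% of all genes. In this last comparison the Notch2 call ended without combination library 1 or 3, entinostat library 2 or control library 1 or 2, and the Notch3 call without combination library 1 or 3 or control library 2 or 3. The Notch3 call with against without entinostat held in 2 of 12 fits that left out a library, those without combination library 2 or anti-PD-1 library 2. With the alveolar score it ended as well (1.07, edgeR adjusted p = 0.115), as did the calls of Notch3 (1.83, adjusted p = 0.0674) and Notch2 (1.41, adjusted p = 0.137) in the combination against control. For entinostat against control 2 of 12 rose, Jag2 (0.86, edgeR adjusted p = 0.0306) and Notch2 (1.71, adjusted p = 0.049), among 1.3% of all genes. Both calls were fragile: Jag2 lost it without control library 1 (adjusted p = 0.0891), control library 2 or any entinostat library, and Notch2 kept it only without anti-PD-1 library 2 or 3 in 12 fits that left out a library (0.129 without control library 1). With the alveolar score both ended (edgeR adjusted p = 0.103 for Jag2 and 0.277 for Notch2). Hes6, an antagonist of Notch targets in neuroendocrine cells, stood at 21.6 to 122 CPM in the combination group, 32.4 to 116 CPM with entinostat, 37.0 to 122 CPM with anti-PD-1 and 72.1 to 425 CPM in controls, and did not pass. Fibroblasts and vascular mural cells also express Notch2 and Notch3, and the fibroblast sums given for Lrp1 apply here too.

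In the group around Ncam1, 1 of 7 genes fell with against without entinostat, where 6.74% of all genes fell. Ncam2, the paralogue of Ncam1, stood at 1.31, 1.46 and 2.59 CPM in the combination group, 2.35, 1.17 and 3.51 CPM with entinostat, 9.43, 3.21 and 5.74 CPM with anti-PD-1, and 24.0, 4.55 and 19.0 CPM in controls. All controls were above all libraries with entinostat, as for 12.3% of all genes tested. Ncam2 fell by 2.26 on the log2 scale with against without entinostat (SE 0.46, edgeR adjusted p = 0.0156) and by 3.14 (SE 0.67, adjusted p = 0.0173) in the combination against control. With the alveolar score as a covariate these were -1.35 (adjusted p = 0.053) and -1.94 (adjusted p = 0.0482), and the call for the combination ended without combination library 1 or 3. St8sia4, which attaches polysialic acid to NCAM1, fell by 1.29 (SE 0.35, edgeR adjusted p = 0.0393) in the combination against control, the second of 7 genes to fall there, where 7.78% of all genes fell; the call ended without entinostat library 2 or any combination or control library, with upper quartile scaling (adjusted p = 0.0683) and with the alveolar score (adjusted p = 0.114). For entinostat against control 1 of 7 fell, where 3.98% of all genes fell: Ncam2 fell by 2.75 (edgeR adjusted p = 0.0379), and the call was lost without control library 1 (adjusted p = 0.102), control library 3, combination library 1 or 2 or any entinostat library. With the alveolar score as a covariate the value was -1.33 (edgeR adjusted p = 0.193), and upper quartile scaling ended the call as well (-2.52, adjusted p = 0.0562).

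The companions of the other antigens did not pass in any comparison. Of 4 genes around Sez6, none was called: the protease Bace1 stood at 52.5 ± 7.47 CPM in the combination group, 53.0 ± 13.0 CPM with entinostat, 49.6 ± 12.7 CPM with anti-PD-1 and 42.2 ± 5.05 CPM in controls, and the paralogue Sez6l2 at 34.4 ± 20.7, 30.8 ± 13.6, 28.6 ± 4.54 and 27.4 ± 5.48 CPM in the same order (SD, n = 3 each). Of 7 tested B7 relatives of Cd276, none was called. The PD-1 ligand Cd274 stood at 5.57 ± 1.57 CPM in the combination group, 4.15 ± 0.51 CPM with entinostat, 4.30 ± 0.62 CPM with anti-PD-1 and 2.91 ± 1.42 CPM in controls, and the T cell costimulator Icosl at 6.15 ± 2.20, 4.73 ± 1.11, 6.06 ± 2.08 and 3.37 ± 0.48 CPM in the same order (SD, n = 3 each). Of the other 6 somatostatin receptors and ligands, 3 passed the filter on low counts and none was called; the highest, Sstr3, did not exceed 8.98 CPM, and Sst, the hormone, did not exceed 0.302 CPM. Of 10 ganglioside genes around B4galnt1, none was called. The first enzyme of the pathway, Ugcg, stood at 72.4 ± 16.3 CPM in the combination group, 96.3 ± 23.0 CPM with entinostat, 82.5 ± 12.5 CPM with anti-PD-1 and 88.6 ± 20.2 CPM in controls, and the next, B4galt5, at 78.4 ± 15.8, 74.2 ± 20.1, 69.5 ± 17.5 and 60.6 ± 13.0 CPM in the same order (SD, n = 3 each). St8sia1, the GD3 synthase needed for GD2, ran between 2.19 and 40.4 CPM among controls alone.

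**Figure D4:**
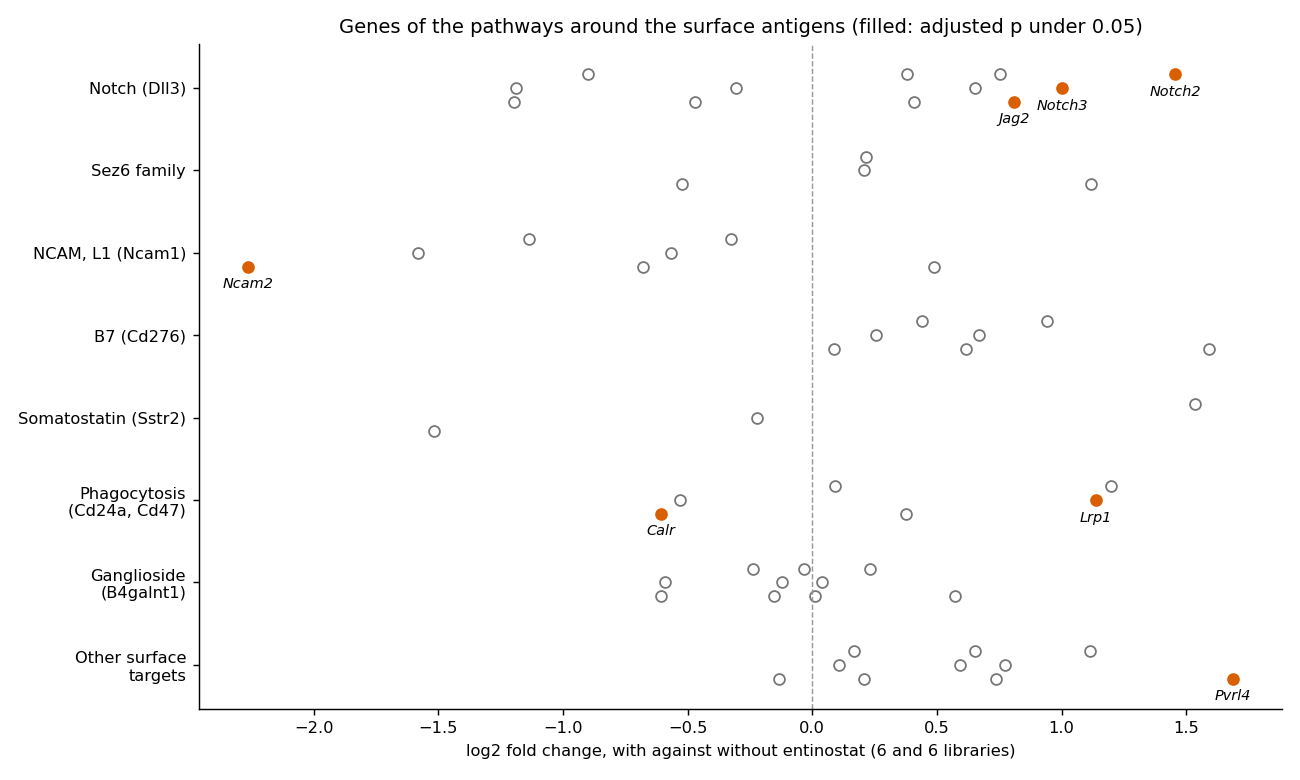
log2 fold change with against without entinostat (horizontal axis, 6 and 6 libraries) of 59 genes in 8 lists around the antigens (vertical axis). Filled points passed an edgeR adjusted p of 0.05: Jag2, Notch2, Notch3, Lrp1 and Pvrl4 to the right, Ncam2 and Calr to the left.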

How the data were processed

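RNA-seq of 12 mouse lung tumour libraries, 3 per group, was analysed from raw counts per gene that the authors deposited as a single table. The submitters' processing notes name the trimmers Trimmomatic 0.36 and Trim Galore, the aligner STAR 2.5.4a, R 3.5.1 with DESeq2 1.22.2, and the mouse build mm9; no source used here gives the annotation, the strand setting or the treatment of reads matching several places. Between 65.3% and 77.2% of low counts per library are even, so both mates of a pair may have been counted, and halved counts were tried.

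With edgeR 4.0.16 (R 4.3.3), filterByExpr kept 17426 genes, libraries were scaled by TMM, and a single model of 4 group means over all 12 libraries was tested by quasi-likelihood with robust estimation in 8 comparisons, with Benjamini-Hochberg adjustment over all genes and a threshold of 0.05. A main effect averages what an agent does alone and on top of the other. CPM values are scaled by TMM factors; log2 CPM uses a prior count of 2. DESeq2 1.42.0 and other scalings were alternatives, and the scripts were tested on simulated data. The members and the lists of related and marker genes were chosen with earlier results of these data known. From each list, genes past the threshold were named, up to 4, or else the 2 with the highest expression; a few others were chosen after their values were seen. Beside each antigen, the 3 tested genes with the highest correlation were named, with predicted genes, small RNAs and immunoglobulin or T cell receptor segments skipped. No pair of libraries agreed within sampling noise, and all carry batch label 2, so batches could not be compared. Levels are uncertain where a gene on the opposite strand or a copied gene shares reads.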

Additional observations from a re-analysis of the deposited data

How the results depend on the processing

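In all 165 recounts of the 8 antigens (8 comparisons under up to 21 alternatives) 0 passed, and 0 of 1320 values had an adjusted p under 0.05. The lowest was 0.0509, for Cd24a with against without entinostat in DESeq2, where its log2 fold change ran between -1.10 and -0.51 over the alternatives. The sign changed in 128 of the 1320 values, none of which had passed, and the largest value to change was the -0.55 of Cd47 in the combination against control. Upper quartile scaling raised the median log2 fold change of all genes to 0.20 for entinostat and 0.28 for the combination against control and to 0.15 with against without entinostat, and turned the split of the last comparison into 1046 genes higher and 632 lower, against 674 and 1175 with TMM.

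Of the related genes, Lrp1 and Jag2 passed with against without entinostat in 20 of 20 alternatives, Ncam2 and Calr in 19, Notch2 in 17, Pvrl4 in 10 and Notch3 in 6. In the combination against control, Lrp1, Jag2 and Calr passed in 20 of 21, Ncam2 in 18, Notch3 in 15, Notch2 in 13, Fgfr1 in 11, St8sia4 in 10 and Pvrl4 in 6. The number of all genes called with against without entinostat was 1849, and 600 (without combination library 1) to 2022 when a library was left out, 3399 with DESeq2, 974 with a replicate block and 336 with the alveolar score as a covariate. For entinostat against control it was 919, and 2 (without entinostat library 3) to 1002 when a library was left out, 2389 with DESeq2, 321 with the block, and 0 with the alveolar score or with only the groups compared. For the combination against control it was 2033, and 306 (without combination library 1) to 2038, 3594, 1087, 466 and 0 in the same order. For anti-PD-1 against control it was 1, and 0 to 2 when a library was left out and 648 with DESeq2. Fits of only the groups compared cannot give main effects or the interaction and were not run for these.

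Same-numbered libraries did not deviate together: correlations of 18 such pairs ran between -0.292 and 0.226, and 1 of 12 libraries correlated best with its own number, so the numbers were not used as pairs. With the replicate block 0 of 8 antigens passed in every comparison, and of the related genes Notch3 (adjusted p = 0.0815) and Pvrl4 (0.0591) were not called with against without entinostat, nor Notch2 (0.0565), St8sia4 (0.0641), Fgfr1 (0.0653) and Pvrl4 (0.0756) in the combination against control. With 3 libraries a group, the 95% interval of Dll3 with against without entinostat spans a fold of 0.21 to 1.11. The lowest count behind any value of the 8 antigens was 111.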

Other observations

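Other surface proteins pursued in small cell lung cancer were examined as a list of 10 tested genes. In the combination against control 2 rose and none fell, where 3.88% of all genes rose. Fgfr1, a growth factor receptor, stood at 23.1, 17.5 and 30.7 CPM in the combination group, 18.1, 12.2 and 14.5 CPM with entinostat, 9.12, 22.6 and 20.2 CPM with anti-PD-1, and 12.4, 4.62 and 7.79 CPM in controls. Every combination library was above every control, as for 15.2% of all genes tested. The log2 fold change was 1.52 (SE 0.42, edgeR adjusted p = 0.0393). The call ended in 7 of 12 fits that left out a library, those without combination 1 or 3, entinostat 2 or 3, anti-PD-1 3, or control 2 or 3, and with the alveolar score as a covariate (adjusted p = 0.0823). Pvrl4, which encodes Nectin-4, a target of an antibody-drug conjugate, rose by 2.15 (SE 0.63, edgeR adjusted p = 0.048), at a low level: 0.905 to 1.58 CPM in the combination group and 0.733 to 1.87 CPM with entinostat, against 0.401 to 0.635 CPM with anti-PD-1 and 0.157 to 0.506 CPM in controls. With against without entinostat Pvrl4 was the only gene of the 10 to pass (1.69, edgeR adjusted p = 0.0337), where 3.87% of all genes rose. Its call for the combination held in 1 of 12 fits that left out a library (control 3) and that for entinostat in 4 of 12 (combination 2, entinostat 3, anti-PD-1 2 and control 3), and both ended with the alveolar score (adjusted p = 0.13 and 0.115). The most expressed genes of the list, Igf1r and Kit, were not called. Igf1r stood at 86.5 ± 25.5 CPM in the combination group, 103 ± 35.7 CPM with entinostat, 63.6 ± 25.2 CPM with anti-PD-1 and 48.1 ± 33.1 CPM in controls, and Kit at 57.8 ± 17.2, 61.9 ± 29.3, 57.7 ± 27.7 and 46.6 ± 7.25 CPM in the same order (SD, n = 3 each).

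Of the genes that mark the state of these tumours, Neurod1 did not pass with against without entinostat, while Myc and Yap1 rose. Myc stood at 209, 157 and 211 CPM in the combination group, 183, 244 and 273 CPM with entinostat, 99.8, 165 and 79.1 CPM with anti-PD-1, and 91.8, 50.6 and 99.7 CPM in controls, and the log2 value with against without entinostat was 1.14 (SE 0.22, edgeR adjusted p = 0.014). Yap1 stood at 31.8, 18.7 and 17.8 CPM in the combination group, 21.3, 16.0 and 5.74 CPM with entinostat, 3.01, 10.9 and 7.71 CPM with anti-PD-1, and 5.21, 4.39 and 2.56 CPM in controls, for which it was 1.74 (SE 0.39, edgeR adjusted p = 0.0208). The Yap1 call ended with the alveolar score (1.36, adjusted p = 0.113) and without combination library 1 or entinostat library 2.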
